A study of Homo sapiens with 12 samples.

Results

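The 10 genes described here encode enzymes of serine synthesis and folate-bound carbon transfer, together with asparagine synthetase. They are PHGDH, PSAT1 and PSPH (serine synthesis), SHMT2, MTHFD2, MTHFD1L and ALDH1L2 (mitochondrial folate enzymes), SHMT1 and MTHFD1 (cytosolic folate enzymes) and ASNS. They were chosen by name for their place in the pathway, with earlier results of these data known, and all 10 were listed in the tables of both cell lines, among 34227 genes listed in either.

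Cells make serine from a glycolytic intermediate: PHGDH oxidizes 3-phosphoglycerate, PSAT1 transfers an amino group from glutamate, and PSPH removes the phosphate. Serine hydroxymethyltransferases then pass a carbon unit of serine to tetrahydrofolate and leave glycine, in mitochondria (SHMT2) and in the cytosol (SHMT1), and the folate enzymes carry that unit through its oxidation states between both compartments for purine, thymidylate and formate production. Several of these genes, and ASNS, are textbook targets of ATF4, the transcription factor of the integrated stress response.

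RNA was sequenced from SCC15 and SCC25, both HNSCC cell lines labelled as wild-type oral squamous cells, after 24 h with squamocin (10 µg/mL, per the study's methods) or with the solvent DMSO. Treated samples carry the label ACGs, and squamocin is an annonaceous acetogenin (ACG), a class of plant compounds. Each line and treatment had 3 libraries, 12 in all. Nothing says that the 3 libraries of a group came from separate cultures, so p-values measure only the spread between these samples. Values are given as normalized counts, which are the reads of a gene after division by a size factor for the library; the authors set these factors separately in SCC15 and SCC25.

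The libraries held 16665563 to 22748845 reads on genes, and a mean of at least 10 normalized counts in a cell line admitted all 10 enzymes to the test, among 15902 genes in SCC15 and 16539 in SCC25. Squamocin replicate 3 of SCC15 stood apart from the other squamocin libraries of that line (chi-square per degree of freedom of the read counts 69.4 and 61.3, against 1.74 to 10.8 for the other replicate pairs). Without it, all 10 enzymes kept their call and their direction in SCC15. The genes called there were then 6086 higher and 6022 lower, in place of 4921 and 4773. The limma adjusted p of PHGDH, for example, went from 5.9e-05 to 4.2e-17. Among the squamocin libraries of SCC25, the pairs with replicate 3 were at 7.21 and 10.8, and the remaining pair was at 2.44. The squamous markers summed to 3798 to 3945 normalized counts in the DMSO group and 5202 to 8753 in the squamocin group of SCC15, where KRT5 and TP63 were near 0 (means of 5.42 to 17.5), and to 20920 to 21010 and 30910 to 32070 in SCC25. Of these markers, 2 of 5 tested rose and 0 fell in SCC15, and 4 of 6 rose and 2 fell in SCC25. Over all tested genes 30.9% rose and 30% fell in SCC15, and 38.3% and 38.5% in SCC25. With the libraries scaled to equal totals, 1 squamous marker rose and 3 fell in SCC15, and 4 rose and 2 fell in SCC25. Over all tested genes 2336 then rose and 8179 fell in SCC15, and 5021 and 7896 in SCC25. The 6 fibroblast markers summed to 708 to 784 with DMSO and 482 to 486 with squamocin in SCC15 (0 rose, 2 fell), and to 766 to 809.6 and 1073 to 1228 in SCC25 (1 rose, 0 fell). The 4 endothelial markers summed to 158 to 178 with DMSO and 66.1 to 77.1 with squamocin in SCC15 (1 fell; CDH5 and KDR not listed), and to 233 to 296 and 19.8 to 37.8 in SCC25 (3 fell). The 5 leukocyte markers summed to at most 27.3 in SCC15 and 108 in SCC25, with 0 called in either line and PTPRC not listed in SCC25. Those tested were 4 of the fibroblast, 1 of the endothelial and 1 of the leukocyte markers in SCC15, and 3, 3 and 2 in SCC25. The part of these markers in the results was not tested, and in bulk RNA fewer cells of a kind and less RNA per cell cannot be told apart.

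Every one of the 10 enzymes differed between squamocin and DMSO in both cell lines (limma, adjusted p below the threshold of 0.05). In SCC15, 6 rose and 4 fell, where 30.9% of all tested genes rose and 30% fell. In SCC25, 7 rose and 3 fell, where 38.3% rose and 38.5% fell. PHGDH, PSAT1, MTHFD2, MTHFD1L and ASNS rose in both lines (5 of 10, against 22.1% of the 14454 genes tested in both), and SHMT1 and MTHFD1 fell in both (2 of 10, against 18.6%). PSPH, SHMT2 and ALDH1L2 were called in opposite directions (3 of 10, against 10.1%). Of these 3, SHMT2 kept both calls under every alternative except an absolute log2 fold change above 1. ALDH1L2 in SCC15 passed the filter on low values through its DMSO libraries alone. The PSPH call in SCC15 was lost when its pseudogene copy was added, and the SCC25 call was lost with equal library totals. In each line the treated and control libraries of all 10 enzymes did not overlap, as was also so for 70.6% of the tested genes in SCC15 and 79% in SCC25. The median log2 fold change of the 10 was 1.20 in SCC15 and 0.37 in SCC25, beside 0.01 and -0.01 over all tested genes.

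The authors' scaling bears on small changes. With equal library totals instead, the median of all genes shifted by -0.49 in SCC15 and -0.21 in SCC25 on the log2 scale, since treated libraries had larger normalized totals (median 20826159 against 15511759 in SCC15 and 21182014 against 18272805 in SCC25). The genes called higher and lower were then 2336 and 8179 in SCC15, in place of 4921 and 4773, and 5021 and 7896 in SCC25, in place of 6335 and 6367. The median of the 10 enzymes was then 0.71 in SCC15 and 0.16 in SCC25. PSPH in SCC25 was the single member that lost its call, and no member changed direction.

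**Figure D1:**
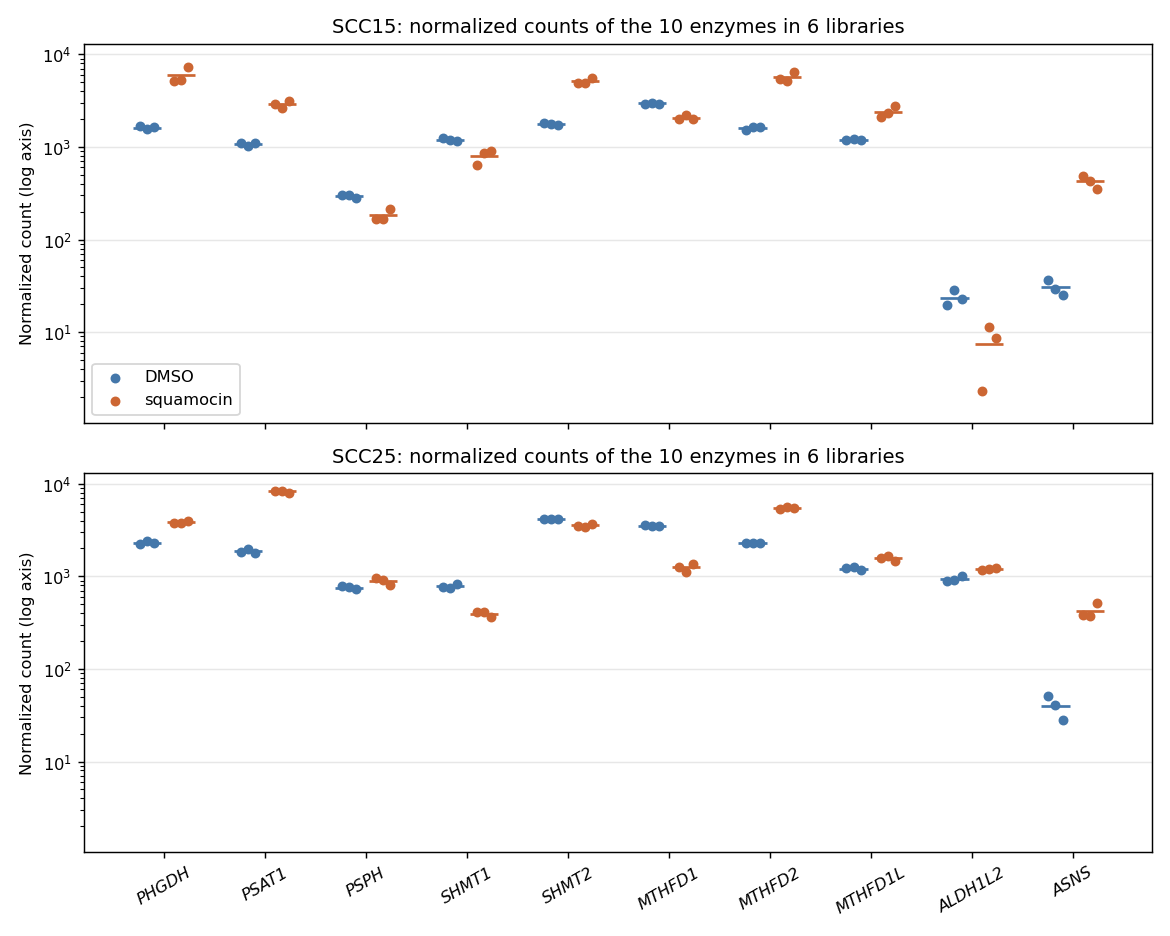
Normalized counts (log axis) of the 10 enzymes in each of the 3 DMSO (blue) and 3 squamocin (orange) libraries of SCC15 (upper panel) and SCC25 (lower panel), with a bar at each mean. The treated and control points of a gene do not overlap in either line, and ASNS shows the widest gap, from 25.3 to 36.7 with DMSO up to 352 to 490.3 with squamocin in SCC15.

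Among the serine synthesis genes, PHGDH and PSAT1 rose in both cell lines, PHGDH by more in SCC15 and PSAT1 by more in SCC25. PHGDH (ENSG00000092621, chr1:119648411-119744226, GRCh38, plus strand) encodes the first enzyme of the pathway. In SCC15 it was at 1688, 1546 and 1628 normalized counts with DMSO and at 5178, 5284 and 7286 with squamocin. Its SCC25 libraries were at 2250, 2378 and 2305 and then at 3751, 3753 and 3928. The treated level was thus highest in SCC15 replicate 3, the library that stood apart, while the SCC25 libraries lay close together. PHGDH changed by 1.85 on the log2 scale in SCC15 (SE 0.14, adjusted p = 5.9e-05) and 0.72 in SCC25 (SE 0.04, adjusted p = 8.3e-09), which is 3.65 and 1.65 times the DMSO mean. Without SCC15 squamocin replicate 3 the log2 fold change in SCC15 was 1.69.

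PSAT1 (ENSG00000135069, chr9:78297143-78330093, plus strand), the aminotransferase of the second step, was at 1105, 1025 and 1111 normalized counts with DMSO in SCC15 and at 2875, 2605 and 3167 with squamocin. In SCC25 it went from 1841, 1971 and 1786 to 8392, 8426 and 8008. The treated libraries of SCC25 lay close together and far above their controls. This was a log2 fold change of 1.41 in SCC15 (SE 0.10, adjusted p = 4.2e-05) and of 2.15 in SCC25 (SE 0.05, adjusted p = 1.1e-12), or 2.67 and 4.44 times the DMSO mean. The SCC15 value was 0.91 with equal library totals.

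PSPH (ENSG00000146733, chr7:56011051-56051604, minus strand), the phosphatase that completes the pathway, was called in opposite directions in the 2 lines. It was at 305, 299.7 and 280.2 normalized counts with DMSO in SCC15 and at 166, 168 and 213 with squamocin. Its SCC25 libraries were at 777, 764 and 729 and then at 965, 904 and 798. The log2 fold change was -0.70 in SCC15 (SE 0.13, adjusted p = 0.0028) and 0.23 in SCC25 (SE 0.07, adjusted p = 0.011). The SCC15 value was -1.20 with equal library totals. The SCC25 call was lost with equal library totals (log2 fold change 0.02, adjusted p = 0.8), without squamocin replicate 1 (0.17, adjusted p = 0.058) and without DMSO replicate 3 (0.20, adjusted p = 0.051).

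A copy of PSPH, the unprocessed pseudogene PSPHP1 (chr7:55764797-55773288), was listed in SCC15 and not in SCC25, where PSPH had 719 to 964 reads per library. Whether the counting split reads between PSPH and its copy in SCC15 was not tested. PSPHP1 was at 139.9, 147 and 134 normalized counts with DMSO and at 257, 239 and 421 with squamocin, the reverse direction to PSPH in the same libraries. The sum of the 2 genes was 445, 447 and 414 with DMSO and 423, 407 and 633 with squamocin, which overlap. The summed log2 fold change was 0.135 (adjusted p = 0.52, an alternative chosen after seeing the data), and the sum includes the rise of PSPHP1. The fall of PSPH in SCC15 was thus not seen when the gene and its copy were counted together. The named pseudogene copies of the other enzymes stayed at 9 normalized counts or less.

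Both serine hydroxymethyltransferases responded, SHMT1 downward in both lines and SHMT2 in opposite directions. SHMT2 (ENSG00000182199, chr12:57229327-57234935, plus strand), the mitochondrial form, was at 1814, 1753 and 1742 normalized counts with DMSO in SCC15 and at 4906, 4847 and 5575 with squamocin. In SCC25 it started higher, at 4190, 4112 and 4167, and lay at 3499, 3429 and 3700 with squamocin. SHMT2 thus changed by 1.53 on the log2 scale in SCC15 (SE 0.09, adjusted p = 2.3e-05) and -0.23 in SCC25 (SE 0.04, adjusted p = 0.00026). Its treated level was 2.89 times its DMSO mean in SCC15 and 1.17-fold lower in SCC25. The SCC25 value was -0.44 with equal library totals.

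SHMT1 (ENSG00000176974, chr17:18327860-18363563, minus strand), the cytosolic form, went from 1234, 1200 and 1145 normalized counts with DMSO to 641, 861 and 908 with squamocin in SCC15. In SCC25 it went from 770.5, 745 and 817 to 410.5, 409.7 and 361. SCC15 squamocin replicate 1 was the lowest of its group, and the groups did not overlap in either line. Its log2 fold change was -0.59 in SCC15 (SE 0.14, adjusted p = 0.008) and -0.98 in SCC25 (SE 0.07, adjusted p = 7.4e-08). With equal library totals the SCC15 value was -1.08. SMCR8, at 250.1 to 1089 normalized counts over the 2 lines, shares 197 exonic bases with SHMT1 on the other strand in GENCODE release 44, and whether the counting used strand is not given in the sources used here.

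Of the 3 further mitochondrial folate enzymes, MTHFD2 and MTHFD1L rose in both lines, and ALDH1L2 was called lower in SCC15 at very low counts and higher in SCC25. MTHFD2 (ENSG00000065911, chr2:74198562-74217565, plus strand) encodes the mitochondrial dehydrogenase and cyclohydrolase that oxidizes the serine-derived unit. It was at 1541, 1641 and 1653 normalized counts with DMSO in SCC15 and at 5423, 5142 and 6427 with squamocin. In SCC25 it was at 2273, 2294 and 2288 and then at 5313, 5656 and 5450. The treated libraries of both lines thus came to a similar count from different controls, as far as values scaled separately can be set side by side. On the log2 scale MTHFD2 changed by 1.81 in SCC15 (SE 0.10, adjusted p = 2.3e-05) and 1.26 in SCC25 (SE 0.04, adjusted p = 3.7e-11), or 3.52 and 2.40 times the DMSO mean.

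MTHFD1L (ENSG00000120254, chr6:150865549-151101887, plus strand), the mitochondrial synthetase that releases formate, was at 1178, 1203 and 1199 normalized counts with DMSO in SCC15 and at 2107, 2304 and 2790 with squamocin. In SCC25 it was at 1216, 1249 and 1161 and then at 1577, 1664 and 1468. In these counts, scaled separately per line, the control libraries of both lines overlapped. In reads per length and read total (RPKM, given below) they did not, at 22 to 22.5 in SCC15 and 18.4 to 19.8 in SCC25. The SCC15 treated libraries all lay above those of SCC25 on both measures. The log2 fold change was 1.00 in SCC15 (SE 0.11, adjusted p = 0.00032) and 0.38 in SCC25 (SE 0.06, adjusted p = 5.8e-05). With equal library totals these were 0.50 and 0.17 (adjusted p = 0.0011 and 0.014).

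ALDH1L2 (ENSG00000136010, chr12:105019784-105084577, minus strand), the mitochondrial 10-formyltetrahydrofolate dehydrogenase, was nearly silent in SCC15 and well expressed in SCC25. In SCC15 it was at 19.6, 28.5 and 22.7 normalized counts with DMSO and at 2.32, 11.4 and 8.71 with squamocin, from 2 to 36 reads per library. In SCC25 it was at 886.5, 916 and 1010 and then at 1159, 1208 and 1229. The log2 fold change was -1.72 in SCC15 (SE 0.52, adjusted p = 0.023) and 0.36 in SCC25 (SE 0.06, adjusted p = 0.00014). The SCC15 call was lost without DMSO replicate 1, 2 or 3 (adjusted p = 0.054, 0.085 and 0.067), and without squamocin replicate 1 the value was -1.15. The gene C12orf45, on the other strand with 145 shared exonic bases, was at 266 to 466 normalized counts in SCC15, far above ALDH1L2 there. The SCC25 value was 0.15 (adjusted p = 0.041) with equal library totals.

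MTHFD1 (ENSG00000100714, chr14:64388031-64463457, plus strand), the cytosolic enzyme that joins 3 folate activities in 1 protein, fell in both lines and by more in SCC25. It went from 2920, 2995 and 2927 normalized counts with DMSO to 2011, 2195 and 1996 with squamocin in SCC15. In SCC25 it went from 3545, 3454 and 3473 to 1254, 1123 and 1372. The control libraries of each line lay within a narrow band and every treated library was below it. For MTHFD1 the log2 fold change was -0.51 in SCC15 (SE 0.08, adjusted p = 0.0013) and -1.49 in SCC25 (SE 0.06, adjusted p = 4.4e-10), which is 1.43-fold and 2.79-fold lower. With equal library totals the SCC15 value was -1.01.

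ASNS (ENSG00000070669, chr7:97852118-97872542, minus strand), which makes asparagine from aspartate with glutamine as the nitrogen donor, had the largest change among the 10 enzymes in both lines. It was at 36.7, 29.2 and 25.3 normalized counts with DMSO in SCC15 and at 490.3, 433 and 352 with squamocin. Its SCC25 libraries were at 50.8, 40.5 and 28.3 and then at 384, 370.2 and 518.5. The lowest treated library of either line was several times above the highest control. The log2 fold change was 3.77 in SCC15 (SE 0.19, adjusted p = 1.4e-05) and 3.40 in SCC25 (SE 0.20, adjusted p = 7.1e-09), or 13.98 and 10.64 times the DMSO mean. By absolute log2 fold change ASNS ranked 99 of 15902 genes in SCC15 and 312 of 16539 in SCC25. The processed pseudogene AC005326.1, inside ASNS on the other strand, was at 0 to 6.82 normalized counts in the DMSO libraries and at 47.9 to 60.3 in the squamocin libraries of the 2 lines.

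The promoters of the 10 genes were read from RefSeq windows of 300 bases, from 250 before to 50 after an annotated start (GRCh38.p14), which were at hand for 7 of the 10 (11 windows; PSPH, SHMT2 and ALDH1L2 are not in the table). Both strands were searched for the C/EBP-ATF composite element TGATGNAA, which stress-induced ATF4 is known to bind, for the E-box CACGTG bound by MYC and related factors, and for the antioxidant response element TGACNNNGC bound by NRF2. Over all 35116 promoter windows, 3.62%, 7.26% and 13.3% held them. The composite element lay in the windows of ASNS and MTHFD1L, and the E-box in those of MTHFD1L and MTHFD1. ASNS and MTHFD1L rose in both lines, and MTHFD1 fell in both. PHGDH, PSAT1 and MTHFD2 also rose in both lines, and their windows held neither the composite element nor the E-box. The matches are printed with the motif in capitals, since they are the members' matches to elements of regulators measured in the same libraries. The ASNS site starts at -68 from the start of 1 of its 2 windows, and the MTHFD1L element at -129, -90 or 25 from the starts of 3 overlapping windows. The stretches printed are chr7:97872458-97872487 (minus strand), chr6:150866346-150866375, chr6:150866320-150866349 and chr14:64388326-64388355 (plus strand).
ASNS composite element: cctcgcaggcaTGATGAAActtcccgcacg
MTHFD1L composite element: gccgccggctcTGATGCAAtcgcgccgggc
MTHFD1L E-box: cacgcccggctcCACGTGcgcagccggccg
MTHFD1 E-box: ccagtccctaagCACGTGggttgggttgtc
MTHFD2 held a match to the antioxidant response element, and the windows of PHGDH, PSAT1 and SHMT1 held none of the 3 motifs. A match is a run of letters, and binding was not measured here.

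The responses of 8 of the 10 enzymes differed between the cell lines (contrast of the 4 group means, limma, adjusted over 14454 genes, of which 52.2% differed). The SCC25 response exceeded that of SCC15 for PSPH (by 0.93 on the log2 scale, SE 0.15, adjusted p = 0.00023) and PSAT1 (by 0.74, SE 0.11, adjusted p = 0.00012). For ALDH1L2 it did so by 2.08 (SE 0.50, adjusted p = 0.0038), but in SCC15 this gene passed the filter through its DMSO libraries alone. With at least 10 in every library ALDH1L2 was left out, and 7 enzymes differed. In these 3 genes the SCC25 value was the higher one. The SCC25 response was below that of SCC15 for SHMT2 (-1.76, SE 0.10, adjusted p = 4.5e-08), PHGDH (-1.13, SE 0.15, adjusted p = 5.4e-05) and MTHFD1 (-0.97, SE 0.11, adjusted p = 1e-05). The rises of MTHFD1L and MTHFD2 were also smaller in SCC25, with differences of -0.62 (SE 0.13, adjusted p = 0.0015) and -0.55 (SE 0.11, adjusted p = 0.0013). For ASNS the difference was -0.36 with a 95% interval from -1.04 to 0.31 (adjusted p = 0.35), and for SHMT1 it was -0.40 with an interval from -0.75 to -0.04 (adjusted p = 0.057). The SHMT1 difference passed the threshold without SCC15 squamocin replicate 1 (-0.55, adjusted p = 0.0015) or replicate 3 (-0.30, adjusted p = 0.0498), and with DESeq2 (-0.41, adjusted p = 0.029). It did not pass in the other alternatives, among them equal library totals (-0.11, adjusted p = 0.54) and the data without SCC15 squamocin replicate 2 (-0.34, adjusted p = 0.12). Equal library totals gave smaller differences for MTHFD1L (-0.33, adjusted p = 0.0086), MTHFD2 (-0.26, adjusted p = 0.018) and ASNS (-0.08, adjusted p = 0.86). The differences of SHMT2 (-1.47), PHGDH (-0.84) and MTHFD1 (-0.68) were then also smaller. Those of PSAT1 (1.03), PSPH (1.22) and ALDH1L2 (2.325) were larger.

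**Figure D2:**
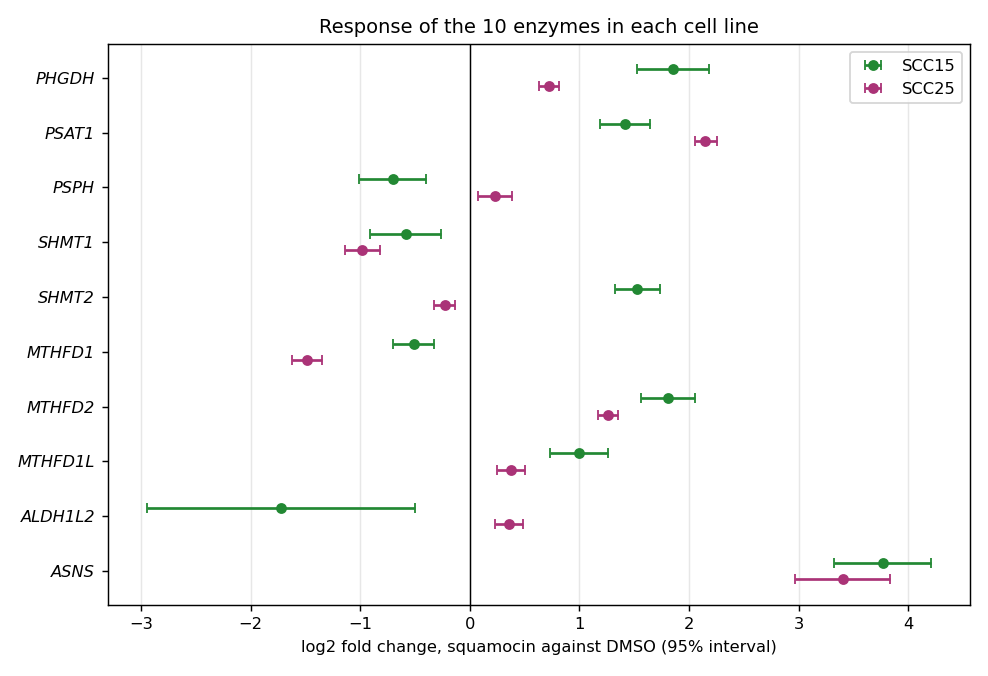
Log2 fold change of squamocin against DMSO for each enzyme in SCC15 (green) and SCC25 (purple), with 95% intervals from limma over 3 libraries per group. SHMT2 lies at 1.53 in SCC15 and at -0.23 in SCC25, and the intervals of ASNS, at 3.77 and 3.40, overlap.

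Levels of different genes were compared per length, as recovered reads per kilobase of the MANE Select transcript and per 1000000 reads (RPKM). With DMSO, MTHFD1 led in SCC15 at 60.3 ± 0.75 RPKM (SD, n = 3), followed by PHGDH at 56 ± 2.5 and SHMT2 at 52.9 ± 1.1, whose libraries overlapped. In SCC25 SHMT2 led at 105 ± 0.92, before PHGDH at 67.7 ± 2 and MTHFD1 at 60.5 ± 0.7. ASNS and ALDH1L2 were the lowest members in both lines, ASNS at 0.823 ± 0.16 in SCC15 and 0.914 ± 0.26 in SCC25. With squamocin PHGDH led in SCC15 at 143 ± 13 and PSAT1 in SCC25 at 178 ± 3.5, and MTHFD1 stood at 30.1 ± 4 and 18.8 ± 2. MTHFD2 came to 58.5 ± 2.2 RPKM in treated SCC15 and 58.8 ± 1.7 in treated SCC25. ASNS came to 8.25 ± 2.1 and 8.43 ± 1.7 RPKM in the treated libraries.

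The other neighbours in these orders whose libraries overlapped were PSAT1 and SHMT1 in SCC15 with DMSO, and PSAT1 and MTHFD2, and MTHFD1L and MTHFD1, in SCC15 with squamocin. In SCC25 with squamocin they were MTHFD1L, PSPH and MTHFD1, and ASNS, ALDH1L2 and SHMT1. The order depends on the length used: with the union of all annotated exons, an alternative chosen after seeing the data, 21 of the 40 ranks changed and MTHFD1 was at rank 6 of 10 in SCC15 with DMSO in place of 1. PSAT1 was then above PHGDH in all 4 groups. MTHFD2L, a paralogue of MTHFD2, was between 3.7 and 5.57 RPKM in the 4 groups, and ALDH1L1, the cytosolic counterpart of ALDH1L2, between 0.122 and 0.418.

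**Figure D3:**
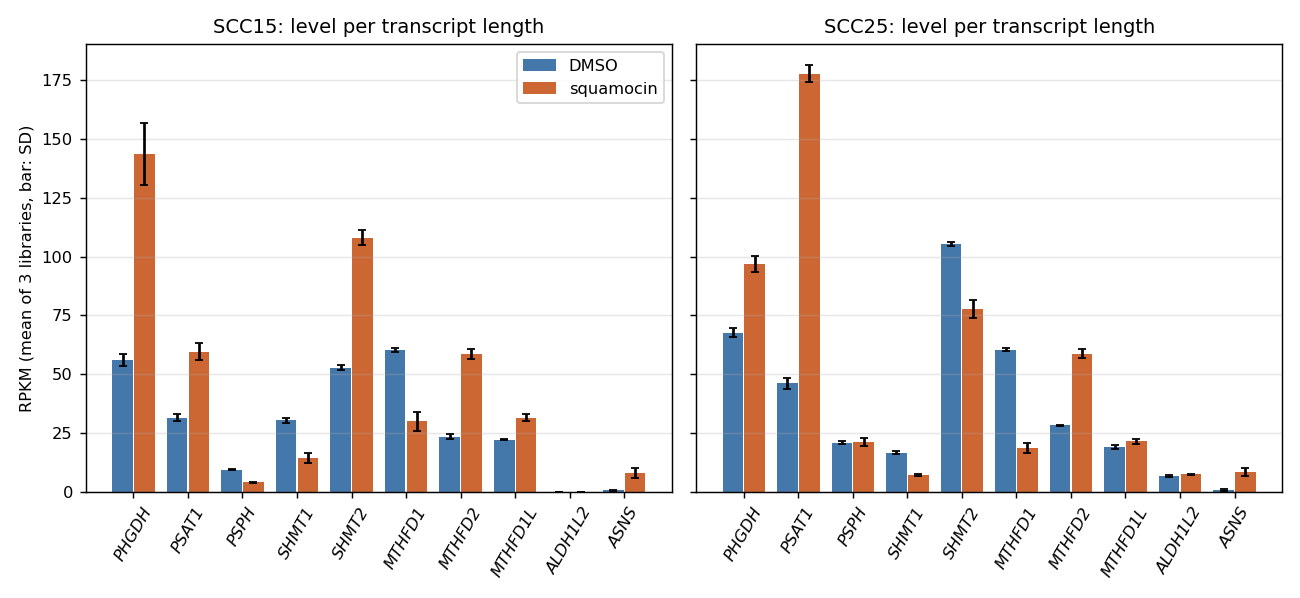
Level of each enzyme in RPKM (recovered reads per kilobase of MANE Select transcript and per 1000000 reads), mean of 3 libraries with the SD as error bar, with DMSO (blue) and squamocin (orange) in SCC15 (left) and SCC25 (right). PHGDH reaches 143 in treated SCC15 and PSAT1 178 in treated SCC25, while MTHFD1 is lower in the treated groups of both lines.

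Ratios between 2 enzymes in the same library do not depend on any scaling of the libraries. They were computed after the values above had been seen. SHMT2 stood to SHMT1, in RPKM, at 1.72, 1.71 and 1.78 with DMSO in SCC15 and at 8.97, 6.6 and 7.19 with squamocin. In SCC25 the ratios were 6.37, 6.47 and 5.97 and then 9.98, 9.8 and 12. The mitochondrial form thus outweighed the cytosolic one in every library, and the treated ratios lay above the control ratios in both lines, also in SCC25 where both genes fell.

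The ratio of MTHFD1L to MTHFD1 was 0.369, 0.367 and 0.374 with DMSO in SCC15 and 0.958, 0.959 and 1.28 with squamocin. In SCC25 it was 0.314, 0.33 and 0.306 and then 1.15, 1.35 and 0.978. The ratio of MTHFD2 to MTHFD1 went from 0.378, 0.393 and 0.404 to 1.93, 1.68 and 2.31 in SCC15, and from 0.459, 0.476 and 0.472 to 3.03, 3.61 and 2.85 in SCC25. The treated ratios lay above the control ratios in both lines. The length used sets whether a ratio is above or below 1, but not how far it moved between the treatments. The treated means of the 3 ratios were 4.36, 2.88 and 5.04 times the DMSO means in SCC15 and 1.69, 3.67 and 6.74 times in SCC25. Each comparison of 3 against 3 libraries gave a two-sided exact permutation p of 0.1, the smallest that this design allows.

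**Figure D4:**
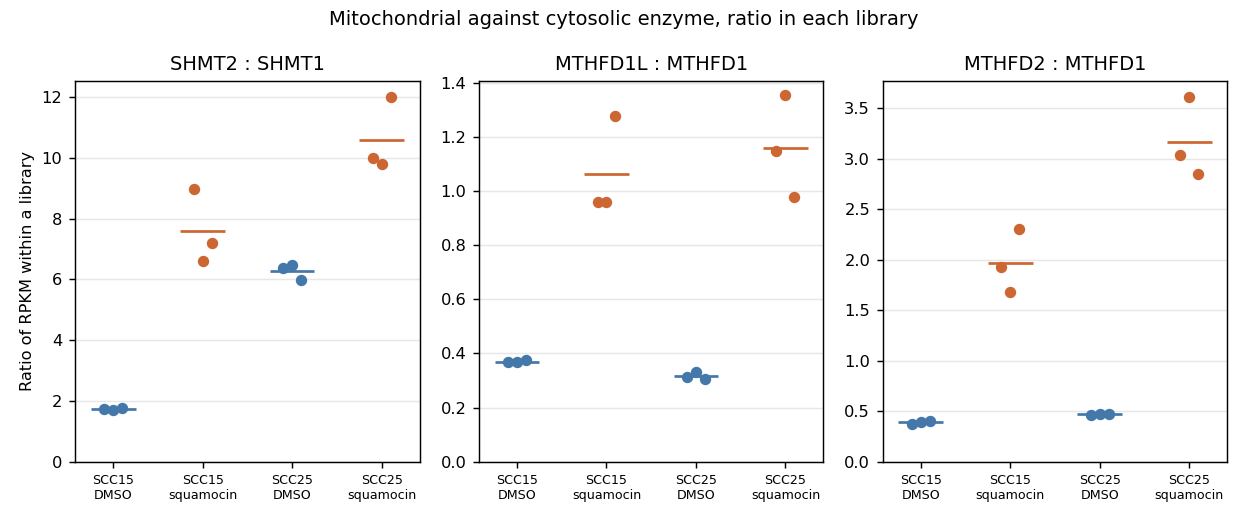
Ratio of a mitochondrial to a cytosolic enzyme in RPKM within each library, for SHMT2 to SHMT1 (left), MTHFD1L to MTHFD1 (middle) and MTHFD2 to MTHFD1 (right), with a bar at each mean of 3 libraries and axes starting at 0. All squamocin points (orange) lie above the DMSO points (blue) of the same cell line.

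Within serine synthesis, the ratios between enzymes also moved. PSAT1 stood to PHGDH at 0.553, 0.56 and 0.577 in RPKM with DMSO in SCC15 and at 0.47, 0.417 and 0.368 with squamocin. In SCC25 the ratio went the other way, from 0.692, 0.701 and 0.655 to 1.89, 1.9 and 1.73. The treated libraries thus lay below the controls in SCC15 and above them in SCC25, and which of the 2 genes is the more abundant depends on the length used. PSPH stood to PHGDH at 0.171, 0.183 and 0.163 with DMSO in SCC15 and at 0.0303, 0.03 and 0.0276 with squamocin. In SCC25 that ratio went from 0.326, 0.303 and 0.299 to 0.243, 0.228 and 0.192. The treated ratios of PSPH to PHGDH thus lay below the controls in both lines. In SCC15 this ratio leaves out the copy PSPHP1. The exact permutation p was again 0.1 for each ratio in each line.

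The genes whose centred log2 values over the 12 libraries lay closest to those of a member were taken from 9689 protein-coding genes with a mean of at least 100 in both lines. For PHGDH they included RPL12 (root mean square difference 0.03) and FTH1 (0.10), with log2 fold changes of 1.87 and 1.75 in SCC15 and 0.74 and 0.58 in SCC25. For MTHFD2 they were SEC13 (0.06), TVP23C (0.08) and TAF10 (0.10). For MTHFD1 they were EXOC7 (0.08), CCDC134 (0.10) and CRTC1 (0.10).

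Beyond the 10 members, more of the other folate genes fell than rose. The counts of this and the next lists stand beside the 30.9% of all tested genes that rose and 30% that fell in SCC15, and the 38.3% and 38.5% in SCC25. Of 17 tested in SCC15, 4 rose and 9 fell (median log2 fold change -0.30), and of 18 in SCC25, 4 rose and 10 fell (median -0.48). SLC19A1, the reduced folate carrier, fell by 0.97 in SCC15 (adjusted p = 0.00036) and by 1.93 in SCC25 (adjusted p = 2.5e-09) on the log2 scale. With equal library totals 2 rose and 11 fell in SCC15, and 1 rose and 12 fell in SCC25, where 8179 of 15902 and 7896 of 16539 of all genes fell. The direction of SLC19A1 was opposite to that of MTHFD2 and MTHFD1L and the same as that of SHMT1 and MTHFD1.

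Of the genes of glycine cleavage and serine use, 2 of 10 tested rose and 3 fell in SCC15, and 5 of 12 rose and 4 fell in SCC25. SRR, which turns L-serine into D-serine, fell by 0.98 in SCC15 and 1.33 in SCC25 on the log2 scale, and PTDSS1, a phosphatidylserine synthase, fell by 0.34 and 0.67. GCAT, which acts in threonine breakdown to glycine, had log2 fold changes of 1.24 and 0.37, and PTDSS2 of 0.65 and -0.43. GLDC, the decarboxylase of glycine cleavage, averaged at most 10.8 normalized counts in any group. On equal library totals 1 rose and 5 fell in SCC15, while 4 rose and 6 fell in SCC25, and PTDSS2 in SCC15 was at 0.15 (adjusted p = 0.16).

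Of 8 methionine cycle and transsulfuration genes tested, 3 rose and 1 fell in SCC15 and 3 rose and 4 fell in SCC25. MAT2A, which makes S-adenosylmethionine, fell by 0.71 and 1.83, CTH, which makes cysteine, had log2 fold changes of 0.85 and 0.97, and AHCY of 0.83 and -0.70. Of 9 genes of de novo purine synthesis, a user of the 10-formyl unit, 3 rose and 1 fell in SCC15 (median 0.07), and 2 rose and 6 fell in SCC25 (median -0.54). PFAS fell by 0.42 and 1.159, PPAT had log2 fold changes of 0.42 and 0.31, and IMPDH2 of 0.98 and -0.54. Equal library totals gave 2 methionine cycle genes higher and 4 lower in each line, and 1 and 0 purine genes higher and 6 and 7 lower in SCC15 and SCC25, and PPAT lost both calls, at -0.08 in SCC15 (adjusted p = 0.55) and 0.10 in SCC25 (adjusted p = 0.079).

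Other enzymes of amino acid synthesis rose in 11 and fell in 2 of 13 in SCC15 (median 0.75), and rose in 5 and fell in 5 of 13 in SCC25 (median 0.12). GLUD1 and GOT1, which handle glutamate and aspartate, had log2 fold changes of 1.34 and 1.13 in SCC15 and of 0.97 and 1.02 in SCC25, the same direction as ASNS. GLUL, glutamine synthetase, fell by 0.34 and 1.76, and GPT, an alanine aminotransferase, by 1.17 and 2.35. Under equal library totals 5 of the 13 rose and 2 fell in SCC15, and 4 rose and 6 fell in SCC25.

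Of 7 known regulators of serine pathway genes, 4 rose and 1 fell in SCC15, and 4 rose and 2 fell in SCC25. ATF4 averaged 4689 ± 103 normalized counts (SD, n = 3) in control SCC15 cells and 22530 ± 4494 in treated ones, and 9553 ± 27.5 and 18000 ± 815 in SCC25. Its log2 fold change was 2.25 in SCC15 (SE 0.14, adjusted p = 3.2e-05) and 0.91 in SCC25 (SE 0.04, adjusted p = 5.4e-10), and the SCC25 response was smaller (difference -1.33, SE 0.16, adjusted p = 1.7e-05). Of the members whose response differed, PHGDH, MTHFD2 and MTHFD1L also rose by less in SCC25. SHMT2, which rose in SCC15 and fell in SCC25, had the lower value in SCC25 too. So did MTHFD1, which fell in both lines while ATF4 rose in both. PSAT1, PSPH and ALDH1L2 had the higher value there. MYC, another known activator of serine and folate genes, averaged 622 ± 12.2 and 1052 ± 103 in SCC15 and 6439 ± 141 and 1762 ± 78.2 in SCC25, log2 fold changes of 0.75 (SE 0.10, adjusted p = 0.00052) and -1.87 (SE 0.04, adjusted p = 2.6e-12). SHMT2 and MYC were thus both called higher in SCC15 and lower in SCC25 under the authors' scaling. PSPH (-0.70 and 0.23) and ALDH1L2 (-1.72 and 0.36) were called the opposite way to MYC in both lines. The other members were each called in the same direction in both lines, unlike MYC. The MYC response differed by -2.62 between the lines (SE 0.10, adjusted p = 4.3e-09). NFE2L2, which encodes NRF2, had log2 fold changes of 0.65 and 1.37, and EIF2AK1, an ATF4-activating kinase, of 0.48 and 0.18. With equal library totals 1 of the 7 regulators, ATF4, rose in SCC15 and 3 fell, and in SCC25 3 rose and 3 fell. MYC and NFE2L2 in SCC15 were then at 0.26 and 0.15 (adjusted p = 0.12 for both), and EIF2AK1 turned to -0.02 in SCC15 and -0.03 in SCC25. Whether any of these regulators had a part in the changes of the 10 enzymes was not tested.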

How the data were processed

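Per the labels, HISAT2 2.0.5 (build GRCh38) and featureCounts 1.5.0-p3 turned the reads into counts per gene. As deposited, each value is a signal that the authors made by dividing a count by its library's size factor, with factors set separately for each cell line, although columns of the SCC25 table are named FPKM. Multiplied by the recovered size factor, 100% of the values came out whole within 0.001 reads. The authors also deposited a log2 fold change and a p-value of their own DESeq2 comparison, which were not used. The annotation release and the strand setting are not given in the sources used here.

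The normalized counts, on the scale log2(value + 1), were tested with limma 3.58.1 (trend, two-sided) in R 4.3.3 on all genes with a mean of at least 10, with Benjamini-Hochberg adjustment per cell line and over the genes tested in both for the difference. Fold changes on this scale understate those of low genes. Intervals are 95%. The scripts were tested on simulated data. The alternatives were pseudocounts of 0.1 and 10, other filters, TMM factors, equal library totals, 2 count models on the recovered reads (edgeR 4.0.16 and, in turn, DESeq2 1.42.0), a replicate block, each library left out in turn, and an absolute log2 fold change above 1. The 10 enzymes and the other lists were chosen with earlier results of these data known. The text names all 10, ATF4, MYC and, per list of context genes, up to 4 called in both lines with the largest absolute mean log2 fold change; GLDC was named after its values were seen. Samples were grouped by their titles. Lengths came from GENCODE release 44, and promoters from RefSeq. Results for some single genes that this rule names are not reported here.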

Additional observations from a re-analysis of the deposited data

Results flagged for a closer look

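The response to squamocin, as a log2 fold change, differed between SCC25 and SCC15 for 8 enzymes by the limma contrast of the 4 group means, which also called 52.2% of all genes tested in both lines. The SCC25 value minus the SCC15 value was -1.13 for PHGDH, 0.74 for PSAT1, 0.93 for PSPH, -1.76 for SHMT2, -0.97 for MTHFD1, -0.55 for MTHFD2, -0.62 for MTHFD1L and 2.08 for ALDH1L2. For PSPH the copy PSPHP1 was listed in SCC15 alone, and for ALDH1L2 the SCC15 side rests on 2 to 36 reads per library.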

How the results depend on the processing

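Requiring an absolute log2 fold change above 1 left 1 enzyme lower in SCC15, 3 higher and 1 lower in SCC25, 3 higher and 0 lower in both lines, and 3 that differed between lines. Over all genes it left 1998 higher and 2320 lower in SCC15 and 2293 and 2813 in SCC25, and equal library totals gave 2336 higher and 8179 lower in SCC15. The sum of PSPH and PSPHP1 in SCC15 was at 0.135, opposite in sign to PSPH alone, and it includes the rise of PSPHP1. Only squamocin replicate 3, the library that stood apart, had a sum (633) above all DMSO libraries (414 to 447). Replicates 1 and 2 were at 423 and 407. Leaving out 1 library gave 3 to 4 enzymes lower in SCC15, 6 to 7 higher in SCC25 and 8 to 9 that differed, and kept 6 higher in SCC15, 3 lower in SCC25, 5 higher in both and 2 lower in both. The calls that were lost or gained were those of ALDH1L2 in SCC15, PSPH in SCC25 and the SHMT1 difference, as given above, and the cause was not tested. Requiring 10 in every library left out ALDH1L2 in SCC15. No other member call changed under the other pseudocounts and filters, TMM, edgeR or DESeq2. Same-numbered libraries did not deviate together (correlations from -0.05 to 0.01, 0 of 6 numbers the best match), and a replicate block changed no member call: it gave 6 higher and 4 lower enzymes in SCC15, and 4665 genes higher there. Depth most limits ALDH1L2 in SCC15 and the DMSO levels of ASNS.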
